A study of Canis lupus familiaris with 12 samples.

Results

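The mRNA levels of MDCKII cells that lack both cingulin (CGN) and paracingulin (CGNL1) were compared with those of WT cells. MDCKII is an epithelial cell line from dog kidney. The members of the comparison were chosen by genotype label, and comprise the 3 double-KO (dKO) and the 3 WT libraries, 6 of the 12 libraries of the series. The other 6 libraries are from a CGN-KO line and a CGNL1-KO line, with 3 libraries of each. They are used here where the dKO line is set against a line with 1 gene targeted. All cells were untreated, and the KO lines had been made by CRISPR/Cas9 editing. The dKO cells are 1 cell line, 21D3, so the effect of the genotype and a property of this line cannot be told apart. Each single-KO genotype is likewise 1 cell line, and the same limit holds for it. The labels do not say whether the WT cells sequenced are a clonal line, and whether the dKO line was made from a single-KO line is not given in the sources used here. The column of 1 dKO library carries no replicate number. Values are listed in the order WT 1, 2, and 3, and dKO unnumbered, 2, and 3.

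CGN and CGNL1 are related cytoplasmic proteins with a head and a coiled-coil rod. CGN sits in the plaque of tight junctions, the most apical contacts between epithelial cells, and CGNL1 sits at both tight and adherens junctions. Both bind junctional scaffolds and microtubules, and they connect junctions to nonmuscle myosin-2, the motor that tenses cortical actin. The question addressed here is which genes differ in mRNA level when both proteins are targeted.

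The WT libraries held 16837532 to 20987950 reads and the dKO libraries 17511571 to 24240796 reads. Levels are read counts scaled to library size (CPM), and differences are dKO minus WT on the log2(CPM + 1) scale, which understates the change of genes with low levels. A gene is called changed at an adjusted p below 0.05 (limma, Benjamini-Hochberg over all 12650 genes tested) and at least a 2-fold difference. The 11 epithelial markers checked were all listed, with a summed level of 7273 to 7446 CPM in WT and 7373 to 7527 CPM in dKO libraries, and 0 of them were called. Of 16 mesenchymal markers 6 were listed, with a summed level of 3471 to 3973 CPM in WT and 4152 to 4473 CPM in dKO libraries, and 0 were called. The defining markers CDH2, TWIST1, COL1A1, and PDGFRB are not in the list of measured genes, nor are PTPRC of blood cells and PECAM1 of endothelium. The 2 listed of 5 endothelial markers summed to 1.47 to 2.04 CPM in WT and 0.690 to 0.853 CPM in dKO libraries, and the 3 listed of 5 blood markers to 13.3 to 14.9 CPM and 12.2 to 13.6 CPM. The part of these differences in the results was not tested.

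The targeted genes were examined first. CGN mRNA was at 233, 211, and 199 CPM in WT and at 41.6, 45.3, and 39.7 CPM in dKO libraries. CGNL1 mRNA was at 12.3, 9.22, and 7.74 CPM in WT and at 1.11, 1.76, and 1.58 CPM in dKO libraries. Both transcripts were lower in every dKO library than in any WT library, by 2.32 ± 0.08 (SE, adjusted p = 8.1e-12) for CGN and by 2.10 ± 0.17 (adjusted p = 2.58e-07) for CGNL1 on the log2 scale, and neither was absent. An exact permutation test of 3 libraries against 3, two-sided, cannot give a p below 0.1, which it gave for both genes. The site of the edits and the protein levels were not analysed here, so these values check the labels by mRNA only. CGNL1 mRNA was also lower than WT in the CGN-KO line, where CGNL1 was not targeted (−0.61, adjusted p = 0.0201 by limma). CGN mRNA in the CGNL1-KO line did not pass the test (−0.07, adjusted p = 0.66).

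Between dKO and WT cells, 178 of 12650 genes (1.41%) were called changed, of which 97 were higher (0.767%) and 81 lower (0.64%) in dKO cells. The 3 dKO libraries lay entirely above or entirely below the 3 WT libraries for all 178 genes called, as they did for 45% of all genes tested. Most of the genes called had low levels: their median level was 7.22 CPM, against 31.9 CPM for the genes tested, and 18 of them exceeded 100 CPM. At any fold, 3333 genes passed the adjusted p, 1875 higher (14.8%) and 1458 lower (11.5%), with median differences of 0.37 and −0.33. The range of the called genes ran from −4.84 for S100A16 to 3.21 for ACKR3. The count test of edgeR on recovered reads called 328 genes and DESeq2 called 326 at the same thresholds, and each of them called 177 of the 178 genes. Nothing in the labels says that the libraries of a genotype are separate cultures, so the p-values measure the spread between these libraries.

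**Figure D1:**
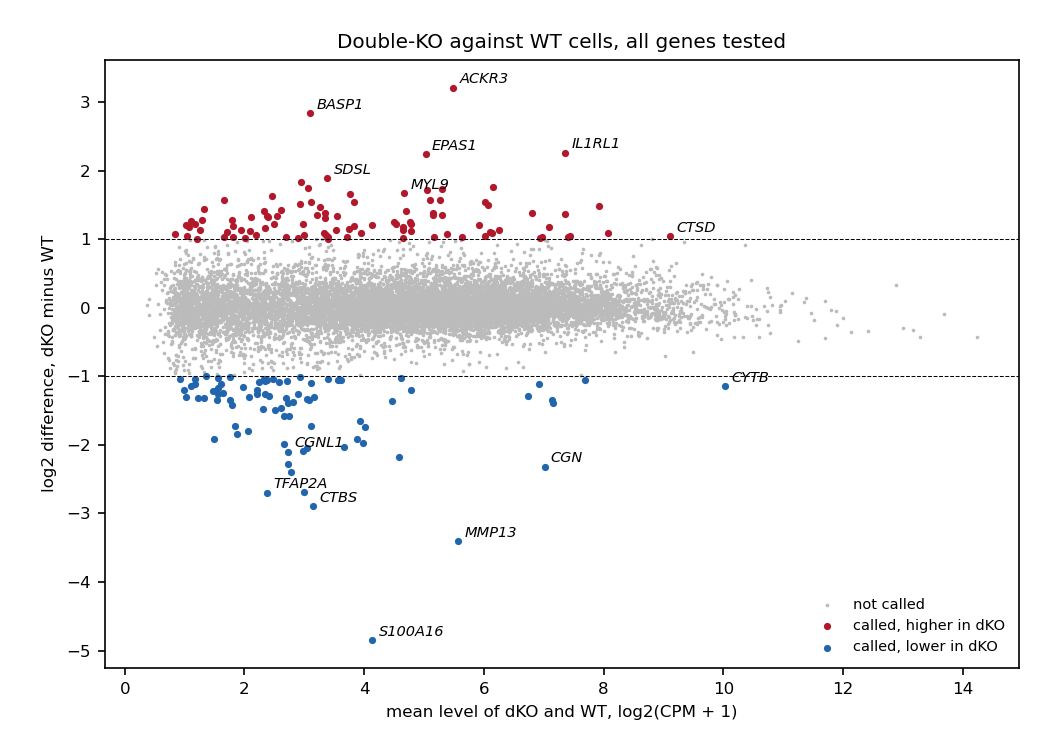
The log2 difference between dKO and WT cells (vertical axis) is plotted against the mean level of the 2 genotypes as log2(CPM + 1) (horizontal axis), with 1 point per gene tested. Of the 12650 genes, the 97 called higher are red, the 81 called lower are blue, and the dashed lines mark a 2-fold difference. S100A16 (−4.84) and ACKR3 (3.21) lie farthest from 0, and CYTB is the most abundant gene called.

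The largest rises included several genes of cell surface receptors. ACKR3, an atypical receptor that takes up chemokines, was at 7.78, 6.62, and 8.98 CPM in WT and at 70.2, 82.5, and 87.7 CPM in dKO libraries, 10.3-fold higher in mean level (log2 difference 3.21 ± 0.10, SE, adjusted p = 7.92e-12). IL1RL1, the receptor of the alarmin IL-33, rose from 58.2, 47.7, and 61.2 CPM to 280.4, 272, and 256 CPM (2.26 ± 0.08, adjusted p = 8.1e-12). NRP1, a coreceptor of semaphorins and VEGF, rose from 2.47, 3.04, and 2.96 CPM to 12, 12.2, and 11.2 CPM (1.74 ± 0.09, adjusted p = 2.82e-09). IL7R, the receptor chain of interleukin-7, was read by 6, 16, and 12 reads in WT and by 76, 65, and 94 reads in dKO libraries (1.57 ± 0.15, adjusted p = 1.23e-06). For each of these receptors the lowest dKO library was above the highest WT library. In these bulk RNA samples, more cells with a transcript and more transcript per cell cannot be told apart.

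BASP1 and EPAS1 were among the 4 largest rises as well. BASP1, a membrane-bound protein linked to actin and growth cones, was at 1.47, 0.828, and 1.05 CPM in WT and at 13.1, 14.5, and 14.5 CPM in dKO libraries, 12.5-fold higher in mean level (2.84 ± 0.15, adjusted p = 2.82e-09). EPAS1, the hypoxia-inducible transcription factor HIF-2α, rose from 10.5, 9.72, and 10.8 CPM to 48.1, 49.1, and 61.3 CPM (2.24 ± 0.09, adjusted p = 1.72e-10). The dKO libraries did not overlap with WT for either gene, and dKO 3 was the highest for EPAS1. Of the 46 genes of glycolysis and hypoxia tested, EPAS1 was the 1 gene called (2.17%, against 1.41% of all genes), with 13 higher and 4 lower at any fold. SNCG, or γ-synuclein, rose by 1.72 ± 0.10 (adjusted p = 5.9e-09) and ZPLD1, a protein with a zona pellucida-like domain, by 1.83 ± 0.12 (adjusted p = 1.48e-08). SDSL, a serine dehydratase-like enzyme, rose by 1.89 ± 0.17 (adjusted p = 7.1e-07).

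STRA6, the membrane receptor that takes up retinol from its carrier, was at 16, 14.9, and 21.4 CPM in WT and at 55.3, 60.6, and 63.1 CPM in dKO libraries (1.73 ± 0.10, adjusted p = 8.8e-09). RBP4, that plasma carrier of retinol, rose from 16.5, 12, and 14.6 CPM to 31.2, 37.7, and 31.7 CPM (1.17 ± 0.19, adjusted p = 0.000235). No dKO library was inside the WT range for STRA6 or RBP4. SLC6A12, the transporter of the osmolyte betaine in kidney cells, rose from 18.0, 14.3, and 16.5 CPM to 50, 48.9, and 52.1 CPM (1.58 ± 0.08, adjusted p = 2.82e-09).

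The fall of S100A16 was the largest difference of either sign. S100A16, a calcium-binding protein of the S100 family, was at 31.6, 32.1, and 35.1 CPM in WT libraries, with 537, 581, and 734 reads. In dKO libraries it was read by 2, 3, and 7 reads, or 0.0969, 0.171, and 0.284 CPM (−4.84 ± 0.21, adjusted p = 2.53e-10), close to the limit of detection. S100A14, its paralog, fell from 217, 186, and 203 CPM to 80, 84.7, and 71.3 CPM (−1.35 ± 0.12, adjusted p = 8.41e-07). Annexin A13 (ANXA13), a lipid-binding protein of the apical pathway in kidney cells, fell from 172, 136, and 142 CPM to 62.4, 66.1, and 54.0 CPM (−1.28 ± 0.11, adjusted p = 4.83e-07). Of the 23 S100 and annexin genes tested, these 3 were called, and at any fold 9 were lower and 2 higher (median −0.16, against −0.000356 for all genes tested).

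CTBS and TFAP2A had the next largest falls after S100A16 and MMP13. CTBS, a lysosomal enzyme that trims the core of N-glycans, was at 14.1, 15.6, and 14.2 CPM in WT and at 0.872, 1.31, and 1.14 CPM in dKO libraries (−2.90 ± 0.13, adjusted p = 2.52e-10). TFAP2A, the transcription factor AP-2α of ectoderm and kidney development, fell from 7.25, 8.56, and 8.17 CPM to 0.581, 0.398, and 0.203 CPM, or 12, 7, and 5 reads (−2.70 ± 0.15, adjusted p = 2.82e-09). The 2 genes were thus read in all dKO libraries, but at a small part of the WT level. TM4SF18, a membrane protein with 4 transmembrane segments, fell by 2.68 ± 0.18 (adjusted p = 2.08e-08), the neurexin ligand NXPH2 by 2.40 ± 0.13 (adjusted p = 2.82e-09), and the membrane glycoprotein GPNMB by 2.29 ± 0.12 (adjusted p = 1.37e-09). RIPOR2, a cytoplasmic regulator of cell polarity and migration, fell from 12.3, 11.6, and 12.6 CPM to 2.03, 1.71, and 2.92 CPM (−2.05 ± 0.13, adjusted p = 1.3e-08). SLC7A11, the cystine/glutamate exchanger, fell from 28, 25.2, and 19.2 CPM to 4.80, 5.40, and 5.89 CPM (−1.97 ± 0.17, adjusted p = 4.55e-07). SCN2B, an auxiliary subunit of sodium channels, fell by 2.03 ± 0.14 (adjusted p = 4.64e-08).

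**Figure D2:**
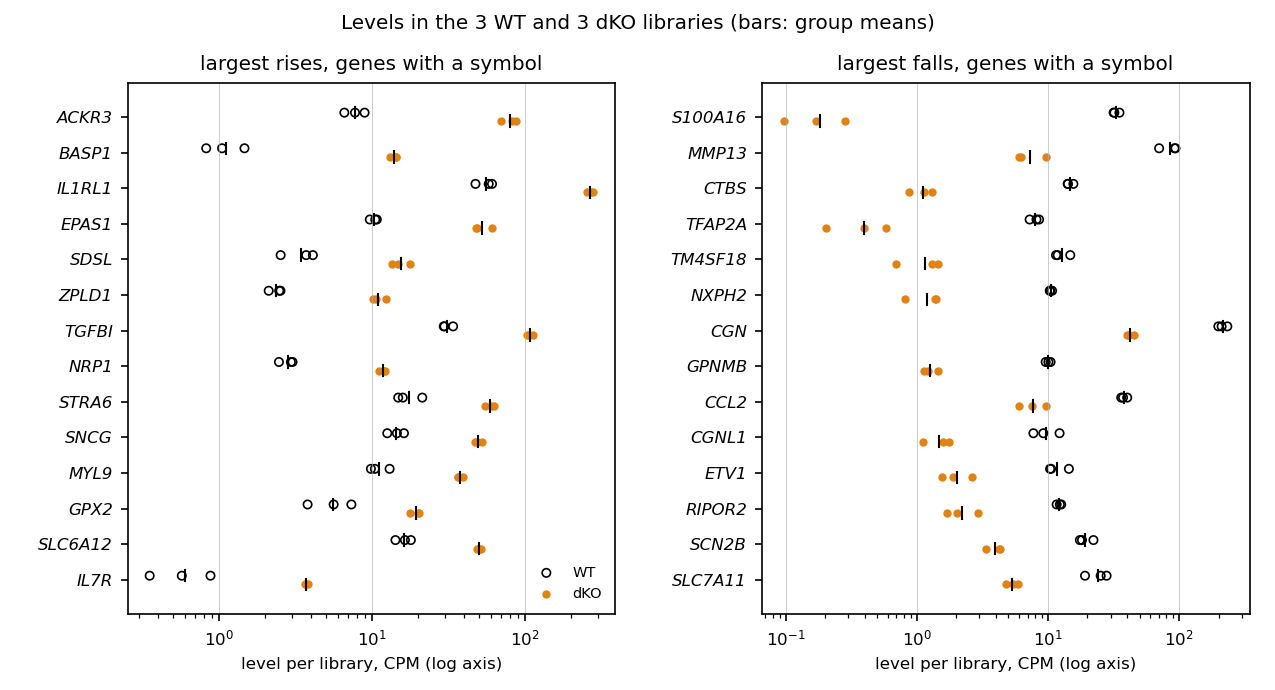
Levels of the 14 genes with the largest rises (left) and the 14 with the largest falls (right) among called genes with a symbol, so without LOC numbers, in CPM on a log axis. Each circle is 1 of the 3 WT (open) or 3 dKO (orange) libraries, and the bars mark group means. The dKO libraries lie to one side of the WT libraries for every gene shown, which was a condition of the choice and holds for all 178 genes called. S100A16 is farthest apart, from 31.6 to 35.1 CPM in WT to 0.0969 to 0.284 CPM in dKO libraries.

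Among genes of the junctions, the targets and 1 desmosomal gene were called. With 1.41% of all genes called, lists of this size would hold few calls in any case. None of the 18 tight junction membrane genes tested was called, with 1 higher and 4 lower at any fold (27.8%, against 26.3% of all genes; median 0.015). Claudin-4 (CLDN4), a barrier-forming claudin, was at 316, 319.8, and 356 CPM in WT and at 229, 252, and 249.8 CPM in dKO libraries (−0.44 ± 0.06, adjusted p = 6.53e-05), and occludin (OCLN) fell by 0.27 ± 0.05 (adjusted p = 0.00085). Of 23 genes of the tight junction plaque, CGN and CGNL1 were the 2 called, with 7 lower and 1 higher at any fold (34.8%), the targets included. Of 22 adherens junction genes none was called, with 4 higher and 2 lower at any fold (27.3%). P-cadherin (CDH3) fell from 95.4, 97.9, and 80.5 CPM to 56.3, 53.9, and 59.4 CPM (−0.68 ± 0.07, adjusted p = 2.83e-06) and nectin-3 (NECTIN3) rose from 43.4, 44.8, and 49.8 CPM to 77.5, 74.2, and 69.7 CPM (0.67 ± 0.07, adjusted p = 3.88e-06). The groups did not overlap for CDH3 or NECTIN3, and both differences were under 2-fold. Among 18 desmosome and keratin genes, 2 were higher and 5 lower at any fold (38.9%), and 1 was called: desmoglein-3 (DSG3) fell by 1.01 ± 0.15 (adjusted p = 0.000113). Its call was lost without WT 1, without WT 3, or without the unnumbered dKO library. It was also lost with a replicate block or when each library was centred by chromosome.

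Of the 30 genes tested for proteins that the study examined, MYL9, a regulatory light chain of myosin-2, was the 1 gene called besides the targets. MYL9 was at 10.5, 9.88, and 13.1 CPM in WT and at 39.2, 36.7, and 36.6 CPM in dKO libraries (1.67 ± 0.10, adjusted p = 6.28e-09), with no overlap. These values are of mRNA. By immunoblot, the paper found similar amounts of the myosin-2 heavy chains and of total and phosphorylated myosin light chains in WT and dKO cells. The other 27 ranged from −0.79 to 0.68. Of these, 4 were higher and 3 lower at any fold, and 20 did not pass the adjusted p. The myosin-2C heavy chain MYH14 was at 94.5, 78.9, and 84.9 CPM in WT and at 113, 121, and 121 CPM in dKO libraries (0.46 ± 0.10, adjusted p = 0.00306), and at 0.26 with an adjusted p of 0.0711 when each library was centred by chromosome. PLEKHA7, an adherens junction protein that binds CGNL1, fell by 0.79 ± 0.12 (adjusted p = 0.000166), and tetraspanin-33 (TSPAN33) rose by 0.43 ± 0.10 (adjusted p = 0.00347). A pair of genes chosen after their values were seen, the myosin-2A heavy chain MYH9 (0.15 ± 0.09, adjusted p = 0.226) and the myosin-2B heavy chain MYH10 (0.12 ± 0.06, adjusted p = 0.179), did not pass the test.

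Lists of the cytoskeleton were then examined. Among 56 genes of actin assembly and actin binding, BASP1 was the 1 gene called (1.79%, against 1.41% of all genes), with 13 higher and 7 lower at any fold. Of 24 targets of SRF and of MRTF, its coactivator that senses actin, 3 were called (12.5%). FILIP1L (1.21 ± 0.08, adjusted p = 2.84e-08) and MYL9 rose, and FHL1, a LIM domain protein with 5, 2, and 3 reads in dKO libraries, fell by 1.31 ± 0.15 (adjusted p = 9.53e-06). Of the 35 Hippo and YAP targets, 0 were called, and 28.6% passed the adjusted p at any fold, against 26.3% of all genes. Among 49 microtubule and motor genes, the kinesin KIF26B was called (2.04%), with 1.77, 2.15, and 2.05 CPM in WT and 6.30, 6.88, and 6.25 CPM in dKO libraries (1.32 ± 0.10, adjusted p = 1.01e-07). None of the 56 cell cycle genes, the 54 genes of the primary cilium, or the 31 polarity genes was called. With 1.41% of all genes called, few calls would be made in such lists in any case. At any fold 25%, 9.26%, and 32.3% of them passed the adjusted p.

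Genes of the extracellular matrix were mostly higher in dKO cells. Of 38 genes of matrix and basement membrane tested, 21 were higher and 1 lower at any fold (median 0.38). Of all genes tested, 14.8% were higher and 11.5% lower at any fold. Of the 38 genes 5 were called (13.2%, against 1.41% of all genes), all higher. This list and the other lists were chosen with earlier results of these data known, so such counts are descriptive. TGFBI, a TGF-β-induced matrix protein that binds integrins, rose from 34.1, 29.6, and 29.9 CPM to 113, 104, and 107 CPM (1.77 ± 0.07, adjusted p = 1.71e-10). VCAN, the large proteoglycan versican, rose from 95.4, 87.8, and 87.4 CPM to 227, 241, and 235 CPM (1.37 ± 0.06, adjusted p = 2.53e-10). COL4A1, a collagen chain of the basement membrane, rose from 76.0, 89.1, and 82.0 CPM to 187, 177, and 198 CPM (1.18 ± 0.09, adjusted p = 1.1e-07), and LOXL2, an enzyme that crosslinks collagen, from 112, 113, and 113 CPM to 225, 228, and 246 CPM (1.04 ± 0.07, adjusted p = 1.29e-08). The 3 libraries of each group were close to each other for these genes, and the groups did not overlap. Fibronectin (FN1), one of the mesenchymal markers, missed the 2-fold threshold at 457, 452, and 409 CPM in WT and 818, 845, and 906 CPM in dKO libraries (0.96 ± 0.10, adjusted p = 3.7e-06). Of 15 integrin genes 5 were higher and 3 lower at any fold and 0 were called, and of 26 adhesion molecules of the immunoglobulin and protocadherin families 11 were higher and 1 lower, with 0 called.

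The proteases that act on matrix, and their inhibitors, moved in both directions. MMP13, a collagenase, fell from 93.8, 70.4, and 92.2 CPM to 6.05, 6.2, and 9.62 CPM (−3.40 ± 0.23, adjusted p = 3.42e-08). PLAU, the urokinase that activates plasminogen, fell from 199, 215, and 204 CPM to 74.6, 73.3, and 86.5 CPM (−1.39 ± 0.08, adjusted p = 5.9e-09). TIMP1, an inhibitor of metalloproteinases, fell from 22.9, 21.2, and 22.2 CPM to 6.93, 6.71, and 5.48 CPM (−1.65 ± 0.13, adjusted p = 1.41e-07). The metalloproteinase MMP13 and the inhibitor TIMP1 thus fell together, with no overlap between the groups. ADAMTS1, a secreted protease that cleaves versican, rose from 15.2, 21.3, and 19.8 CPM to 53.0, 48.6, and 49.1 CPM (1.39 ± 0.10, adjusted p = 1.21e-07). Of the 42 extracellular proteases and inhibitors tested, 3 were called higher and 4 lower (16.7% called, against 1.41% of all genes).

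Genes of the TGF-β and BMP pathway were another group with more rises than falls. Of the 37 tested, 19 were higher and 3 lower at any fold (median 0.27), and 5 were called higher and 1 lower (16.2% called, against 1.41% of all genes). ID1 and ID3, inhibitors of helix-loop-helix factors that respond to BMP, were both among them. ID1 rose from 30.6, 32.5, and 45.2 CPM to 80.5, 81.7, and 87.5 CPM (1.20 ± 0.15, adjusted p = 3.09e-05) and ID3 from 4.95, 4.86, and 7.17 CPM to 15, 16.1, and 15.8 CPM (1.34 ± 0.14, adjusted p = 5.13e-06). The third WT library was the highest WT library for both ID genes and still lay under all dKO libraries. TGFBI, described above, and BAMBI, a decoy receptor, were also among the rises. FST, or follistatin, which binds activin, was the fall, by 1.12 ± 0.18 (adjusted p = 0.000267). TGFB2, a ligand, was at 27.8, 32.3, and 29.9 CPM in WT and at 59.5, 58.8, and 60.2 CPM in dKO libraries (0.97 ± 0.08, adjusted p = 1.85e-07), just under 2-fold.

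NRG1, a ligand of ERBB3 and ERBB4, rose from 36.0, 45.4, and 45.8 CPM to 93.2, 84.3, and 99.5 CPM (1.11 ± 0.14, adjusted p = 2.41e-05), and its call was lost without WT 1. It was the 1 gene called of 18 of the EGF receptor family and its ligands (5.56%, against 1.41% of all genes). Of the 18 genes, 3 were higher and 10 lower at any fold (median −0.32). FGFR2, a fibroblast growth factor receptor, rose from 51.3, 44.3, and 45.1 CPM to 106, 105, and 99.0 CPM (1.13 ± 0.06, adjusted p = 2.82e-09), and FLRT3, which binds FGF receptors, from 14.5, 12.5, and 12.4 CPM to 38.1, 37.9, and 33.7 CPM (1.41 ± 0.09, adjusted p = 9.44e-09). Both groups were tight, with no overlap. MST1R, the receptor of macrophage-stimulating protein, fell from 5.77, 7.18, and 6.02 CPM to 1.31, 1.71, and 1.87 CPM (−1.48 ± 0.12, adjusted p = 3.74e-07). The Wnt inhibitor APCDD1 was the 1 gene called of 30 in the Wnt pathway (3.33%), and rose by 1.30 ± 0.13 (adjusted p = 2.59e-06). LFNG, which modifies Notch receptors, was the 1 gene called of 18 in the Notch pathway (5.56%), and rose by 1.13 ± 0.13 (adjusted p = 7.54e-06). With 1.41% of all genes called, 1 call in a list of this size is no result about the pathway.

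The ETS factors of the PEA3 group and the feedback genes of the MAP kinase pathway were put together as a list after their values were seen, and their count supports nothing by itself. ETV1 fell from 14.4, 10.4, and 10.6 CPM to 1.89, 2.62, and 1.54 CPM (−2.09 ± 0.19, adjusted p = 1.07e-06) and ETV5 from 11.5, 7.23, and 7.36 CPM to 2.71, 2.73, and 2.44 CPM (−1.39 ± 0.17, adjusted p = 1.68e-05). The first WT library was the highest for both. Of the 13 genes of that list 10 were lower and 0 higher at any fold. DUSP6, an ERK phosphatase that ERK signaling itself induces, was at 98.6, 86.9, and 88 CPM in WT and at 65.9, 61.9, and 63.9 CPM in dKO libraries (−0.50 ± 0.06, adjusted p = 2.45e-05).

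Interferon-stimulated genes were mostly lower in dKO cells. Of 49 genes of the interferon response and antigen presentation, 30 were lower and 6 higher at any fold (median −0.31). Among them 5 were called (10.2%, against 1.41% of all genes), all lower. DDX60, a helicase of antiviral sensing, fell from 23.9, 20.2, and 22.5 CPM to 4.70, 7.0, and 4.14 CPM (−1.91 ± 0.15, adjusted p = 1.9e-07). ISG20, an exonuclease, fell from 8.37, 8.39, and 10.6 CPM to 2.62, 3.01, and 2.96 CPM (−1.38 ± 0.15, adjusted p = 6.43e-06), and GBP5, a guanylate-binding protein, fell by 1.32 ± 0.18 (adjusted p = 4.71e-05). The antiviral GTPase MX1, the most abundant of the 5, was at 326, 249, and 259.9 CPM in WT and at 122, 153, and 126 CPM in dKO libraries (−1.05 ± 0.11, adjusted p = 3.38e-06). The groups did not overlap for any of these genes, and the call of MX1 was lost without WT 1 or without the unnumbered dKO library. In the family of guanylate-binding and interferon-induced genes (GBP, IFI, IFIT, OAS, MX), 11 of 16 were lower and 0 higher at any fold, with a median of −0.59. How the counting treated reads that match more than 1 related gene, such as MX1 and MX2, was not examined.

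Of 45 cytokines, chemokines, and their receptors, 4 were called lower and 2 higher (13.3% called, against 1.41% of all genes), the latter ACKR3 and IL1RL1. CCL2, which attracts monocytes, fell from 36.2, 40.2, and 37.4 CPM to 7.56, 6.03, and 9.62 CPM (−2.17 ± 0.13, adjusted p = 5.9e-09). CCL7, its neighbor in sequence and function, fell from 5.13, 4.69, and 4.35 CPM to 0.727, 0.512, and 0.568 CPM, or 15, 9, and 14 reads (−1.84 ± 0.12, adjusted p = 2.69e-08). CCL20, a ligand of CCR6, fell from 11.1, 11, and 11 CPM to 4.17, 3.07, and 4.14 CPM (−1.34 ± 0.15, adjusted p = 8.03e-06), and the neutrophil chemokine CXCL8 fell by 1.0 ± 0.17 (adjusted p = 0.000475). These 4 chemokines were lower in every dKO library than in any WT library. CCL17, a ligand of CCR4 that is not in this list and was chosen after its values were seen, rose instead, from 33.9, 32.1, and 36.6 CPM to 99.0, 92, and 103 CPM (1.49 ± 0.06, adjusted p = 1.71e-10). At any fold 14 of the 45 genes were lower and 8 higher (median −0.13).

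Some plasma proteins made mainly by the liver, also collected as a list after their values were seen, were higher. LBP, which binds bacterial lipopolysaccharide, rose from 16.1, 16.1, and 14.5 CPM to 35.6, 38.8, and 37.8 CPM (1.22 ± 0.08, adjusted p = 1.24e-08). Complement factor B (CFB) rose from 18.5, 14.3, and 16.2 CPM to 34.6, 37.0, and 38.0 CPM (1.12 ± 0.14, adjusted p = 1.96e-05), and complement C3 rose by 1.09 ± 0.13 (adjusted p = 1.6e-05). No dKO library was inside the WT range for LBP, CFB, or C3. Prothrombin (F2) was read by 10, 10, and 8 reads in WT and by 48, 38, and 59 reads in dKO libraries (1.13 ± 0.19, adjusted p = 0.000303). Of the 13 genes of that list 6 were called higher and 0 lower, a count that the choice of the list could set.

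**Figure D3:**
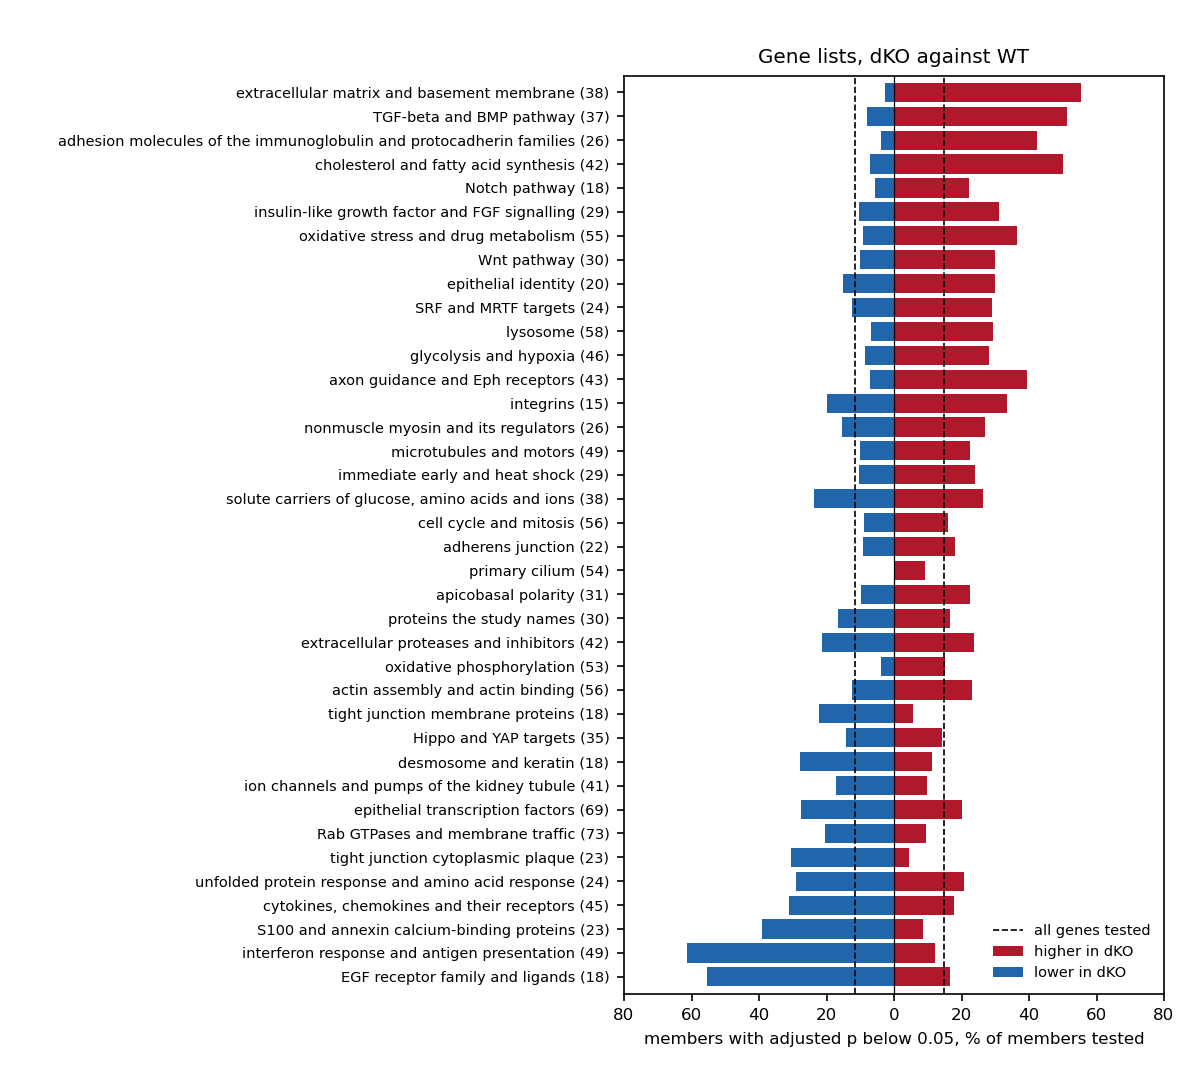
For the gene lists shown (number of genes tested in brackets), bars give the percentage of its genes that passed the adjusted p at any fold in dKO against WT cells, higher to the right (red) and lower to the left (blue). Dashed lines mark the share among all genes tested, 14.8% higher and 11.5% lower, and lists are ordered by median difference. The matrix and the TGF-β and BMP lists have the highest medians, and the EGF receptor and interferon lists the lowest.

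Genes of lipid synthesis showed small differences, mostly upward, and genes of drug metabolism gave some calls. Of 42 genes of cholesterol and fatty acid synthesis, 21 were higher and 3 lower at any fold (57.1%, against 26.3% of all genes; median 0.21), and 0 were called. DHCR7 and TM7SF2, which reduce sterol intermediates late in cholesterol synthesis, were the genes with the smallest adjusted p. DHCR7 was at 118, 115, and 117 CPM in WT and at 194, 187, and 197 CPM in dKO libraries (0.72 ± 0.06, adjusted p = 4.89e-07), and TM7SF2 was at 39.6, 36.6, and 34.2 CPM and at 63.7, 58.5, and 68.1 CPM (0.77 ± 0.07, adjusted p = 1.47e-06). Among 55 genes of oxidative stress and drug metabolism, 20 were higher and 5 lower at any fold (median 0.14). Of them 3 were called higher and SLC7A11 was called lower (7.27% called, against 1.41% of all genes). GPX2, a glutathione peroxidase of epithelia, rose from 7.37, 3.81, and 5.64 CPM to 17.8, 20, and 20.4 CPM (1.66 ± 0.16, adjusted p = 1.93e-06). CYP1A1, which oxidizes xenobiotics, rose by 1.33 ± 0.16 (adjusted p = 1.65e-05), and UGT1A6, which conjugates them, rose from 6, 5, and 8 reads to 47, 48, and 72 reads (1.44 ± 0.15, adjusted p = 2.89e-06). None of the 53 nuclear genes of oxidative phosphorylation was called, and 18.9% passed the adjusted p at any fold, against 26.3% of all genes.

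Kidney tubule genes gave 2 calls among 41 ion channels and pumps (4.88%, against 1.41% of all genes). FXYD6, a regulator of the sodium pump, fell from 13.3, 9.66, and 9.46 CPM to 3.92, 3.98, and 3.09 CPM (−1.33 ± 0.13, adjusted p = 1.69e-06). WNK4, a kinase that regulates salt transport in the distal nephron, fell from 12.6, 12.5, and 9.99 CPM to 3.1, 4.72, and 4.75 CPM (−1.30 ± 0.18, adjusted p = 6.12e-05). Neither gene overlapped between the groups.

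Some further groups had calls in few of their members. Among 43 genes of axon guidance and Eph receptors, NRP1 and SEMA4D were called (4.65%, against 1.41% of all genes), and at any fold 17 were higher and 3 lower. Of 58 lysosomal genes 17 were higher and 4 lower at any fold, with CTSD called higher and CTBS lower (3.45%). Of 73 Rab GTPases and other traffic genes 0 were called, with 7 higher and 15 lower at any fold. RAB32, which serves lysosome-related organelles, was at 97.4, 97.7, and 100.4 CPM in WT and at 157, 161, and 158 CPM in dKO libraries (0.68 ± 0.04, adjusted p = 2.41e-08). HSPB1, a small heat shock protein, rose from 11.9, 13.2, and 14.7 CPM to 25.7, 24.7, and 24.2 CPM (0.86 ± 0.09, adjusted p = 3.7e-06). None of the 29 immediate early and heat shock genes was called, and 34.5% passed the adjusted p at any fold, against 26.3% of all genes.

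By symbol family, 9 of 51 families held at least 2 genes called and 35 held none. The largest family, the zinc finger proteins (ZNF), gave 2 calls among 220 genes (0.909%, against 1.41% of all genes), both lower. ZNF567 was read by 55, 62, and 59 reads in WT and by 12, 14, and 13 reads in dKO libraries (−1.35 ± 0.14, adjusted p = 4.89e-06), and ZNF252 by 40, 43, and 46 reads and by 5, 7, and 9 reads (−1.31 ± 0.14, adjusted p = 4.37e-06). Of 34 receptors with GPR or ADGR symbols, the adhesion receptors ADGRV1, a very large protein of hair cell links, and ADGRL2, a latrophilin, were called (5.88%). ADGRV1 fell from 9.72, 7.51, and 8.03 CPM to 1.70, 2.22, and 2.56 CPM (−1.58 ± 0.14, adjusted p = 5.27e-07), and ADGRL2 fell by 1.08 ± 0.13 (adjusted p = 1.43e-05), a call that was lost without dKO 2. Among 16 cytochromes P450, CYP1A1 and CYP4A11, a fatty acid hydroxylase, were called (12.5%). CYP4A11 rose from 6.42, 4.53, and 5.16 CPM to 12.2, 15.5, and 10.4 CPM (1.09 ± 0.24, adjusted p = 0.00299), and its call was lost without WT 2 or without dKO 2.

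The most abundant genes called were CYTB, CTSD, H19, IGF2, MX1, and LOXL2. CYTB, a subunit of respiratory complex III that is encoded in mitochondrial DNA, fell from 1379.8, 1374, and 1537 CPM to 642, 712, and 597 CPM (−1.14 ± 0.09, adjusted p = 2.09e-07). The mRNAs encoded in mitochondria were collected after their values were seen, and of the 13 tested 8 were lower and 0 higher at any fold (median −0.37). CTSD, the lysosomal protease cathepsin D, rose from 381, 325, and 373 CPM to 716, 752, and 761 CPM (1.05 ± 0.09, adjusted p = 7.59e-07). IGF2, a fetal growth factor, rose from 147, 114, and 120.2 CPM to 336, 366, and 359 CPM (1.48 ± 0.13, adjusted p = 4.09e-07), and H19, the noncoding RNA of the same imprinted locus, rose from 191, 143, and 182 CPM to 361, 376, and 359.7 CPM (1.09 ± 0.17, adjusted p = 0.000164).

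IGF2, H19, CTSD, F2, DHCR7, and TM7SF2 lie on the chromosome that holds CTNND1, whose 398 genes tested had a median difference of 0.30. That chromosome held 3.15% of the genes tested and 7 of the 97 genes called higher (7.22%), with 1 gene called lower. When each library was centred by chromosome, the named genes CTSD, F2, H19, SEMA4D, and DSG3 were no longer called, and IGF2 was. DSG3 lies on none of the chromosomes described here. CTSD and H19 also lost their calls without WT 2. SEMA4D, a semaphorin that rose by 1.13 ± 0.08 (adjusted p = 7.49e-08), lies on the chromosome of MYH14, with a median of 0.20. MYL9, ID1, and FLRT3 lie on a chromosome with a median of 0.14 and kept their calls. These chromosomes were examined with earlier results of these data known. The 10352 genes placed on other chromosomes were pooled, with a median of −0.02. Medians of the single chromosomes among them are not given, so how unusual 0.14 or 0.20 is cannot be told here.

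The genes of the largest differences were then set beside the single-KO lines. Comparisons of the dKO, CGN-KO, and CGNL1-KO lines with WT cells share the 3 WT libraries, and their likeness is therefore no independent evidence. Over the 97 genes called higher in dKO cells the median difference from WT was 1.22 in dKO cells, against 1.16 for the CGN-KO line and 0.66 for the CGNL1-KO line. For the 81 genes called lower the medians were −1.31, −0.94, and −0.63. As these genes were chosen in dKO cells, the dKO median is set by the choice. In the CGN-KO line 96 of the 178 genes were called against WT in the same direction, and in the CGNL1-KO line 45. In the opposite direction 0 and 4 were called. Tested directly against CGN-KO cells at any fold, 18 of the 97 genes were higher in dKO cells and 13 lower. For the 81 genes called lower, 35 were lower in dKO than in CGN-KO cells and 0 higher. S100A16 was at −4.84 in dKO cells, −3.88 in the CGN-KO line, and −4.66 in the CGNL1-KO line, and CTBS was at −2.90, −2.52, and −2.21. TFAP2A was at −2.70 in dKO and −2.43 in CGN-KO but −0.17 in CGNL1-KO cells, and STRA6 was at 1.73, 2.11, and −0.00. RIPOR2, in contrast, was at −2.05 in dKO and −1.91 in CGNL1-KO but −0.71 in CGN-KO cells.

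**Figure D4:**
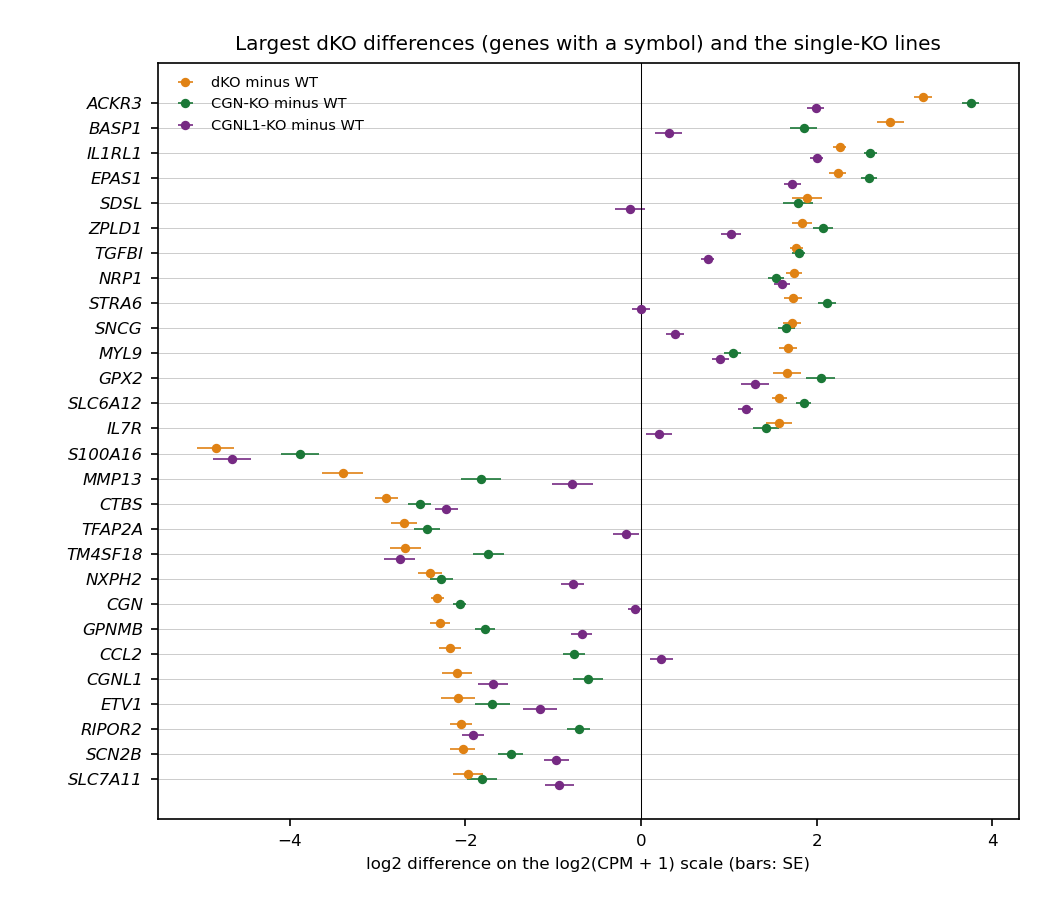
Log2 differences from WT, on the log2(CPM + 1) scale, of the 14 largest rises and 14 largest falls of dKO cells (orange) among called genes with a symbol, with the same genes in CGN-KO (green) and CGNL1-KO (purple) cells; bars are SE and the 3 comparisons share the WT libraries. S100A16 is low in all 3 lines, TFAP2A and STRA6 differ from WT in dKO and CGN-KO cells, and MMP13 and CCL2 are lowest in dKO cells.

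Direct tests between the lines, in the same fit, asked where the dKO line differs from a line with 1 of the 2 genes targeted. Each test sets 1 line against 1 line, so genotype and a property of a line cannot be told apart. Against CGN-KO cells 45 genes were called (0.356%), 6 higher (0.0474%) and 39 lower (0.308%) in dKO cells. Against CGNL1-KO cells 88 genes were called (0.696%), 27 higher (0.213%) and 61 lower (0.482%). These comparisons share the dKO libraries with each other and with the comparison with WT. By the count test of edgeR, 118 and 194 genes were called.

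The dKO level lay beyond WT and both single-KO lines, with each of the 3 tests passed in the same direction, for 10 genes, 3 higher and 7 lower. MMP13 was at 93.8, 70.4, and 92.2 CPM in WT, 29.1, 17.6, and 24.5 CPM in CGN-KO, 71.5, 32.5, and 50.3 CPM in CGNL1-KO, and 6.05, 6.2, and 9.62 CPM in dKO libraries. The highest dKO library was below the lowest of the other 9. The log2 difference was −1.57 (adjusted p = 0.000581) against CGN-KO and −2.62 (adjusted p = 1.94e-06) against CGNL1-KO cells. CCL2 was at 20.7, 23.0, and 22.1 CPM in CGN-KO and at 44.5, 38.5, and 52.2 CPM in CGNL1-KO libraries, against 7.56, 6.03, and 9.62 CPM in dKO libraries. Its level differed from CGN-KO by −1.41 (adjusted p = 6.87e-06) and from CGNL1-KO by −2.41 (adjusted p = 6.91e-09). CCL7 fell beyond both lines as well, by 1.32 (adjusted p = 8.51e-06) and 2.04 (adjusted p = 2.14e-08).

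CCL20 had a level of 31.3, 17.5, and 24.7 CPM in CGNL1-KO and of 10.2, 9.53, and 9.62 CPM in CGN-KO libraries. The dKO libraries, at 4.17, 3.07, and 4.14 CPM, were under both, with differences of −2.38 (adjusted p = 3.82e-08) and −1.18 (adjusted p = 0.000173). CCL20 was thus higher than WT in CGNL1-KO cells (1.04, adjusted p = 0.000233) and lower than WT in dKO cells. PPFIBP2, or liprin-β2, a scaffold protein, was at 9.10, 7.36, and 8.38 CPM in CGN-KO, 13.3, 11.1, and 11.9 CPM in CGNL1-KO, and 3.05, 2.96, and 3.0 CPM in dKO libraries, and differed from them by −1.21 (adjusted p = 8.01e-06) and −1.70 (adjusted p = 4.55e-08).

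Among the rises, TRPA1, a cation channel that senses irritants, was at 32.9, 30.5, and 32.9 CPM in WT, 41.2, 44.1, and 43.2 CPM in CGN-KO, 12.2, 14.3, and 13.6 CPM in CGNL1-KO, and 87.2, 98.1, and 100.2 CPM in dKO libraries. The 4 genotypes did not overlap. TRPA1 was higher in dKO than in CGN-KO cells by 1.13 (adjusted p = 5.89e-07) and than in CGNL1-KO cells by 2.74 (adjusted p = 6.78e-13). It was lower than WT in CGNL1-KO cells (−1.20, adjusted p = 2.16e-08). ADAMTS1 was at 19.3, 17.5, and 17.7 CPM in CGN-KO and 22.5, 25.5, and 20.7 CPM in CGNL1-KO libraries, against 53.0, 48.6, and 49.1 CPM in dKO libraries, with differences of 1.42 (adjusted p = 9.47e-07) and 1.10 (adjusted p = 4.03e-06). MELTF, or melanotransferrin, an iron-binding surface protein, was at 4.65, 4.30, and 4.02 CPM in CGN-KO, 4.88, 3.20, and 3.05 CPM in CGNL1-KO, and 10.6, 11.8, and 12.9 CPM in dKO libraries, with differences of 1.26 (adjusted p = 4.26e-05) and 1.46 (adjusted p = 4.7e-06). For ADAMTS1 and MELTF the single-KO lines did not pass the test against WT. The other 2 of the 10 genes were FAM3D, a secreted cytokine-like protein, with differences of −1.0 (adjusted p = 0.0375) and −1.12 (adjusted p = 0.014), and LOC111091706, a gene without a symbol, with −1.27 (adjusted p = 0.000634) and −1.75 (adjusted p = 1.34e-05).

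**Figure D5:**
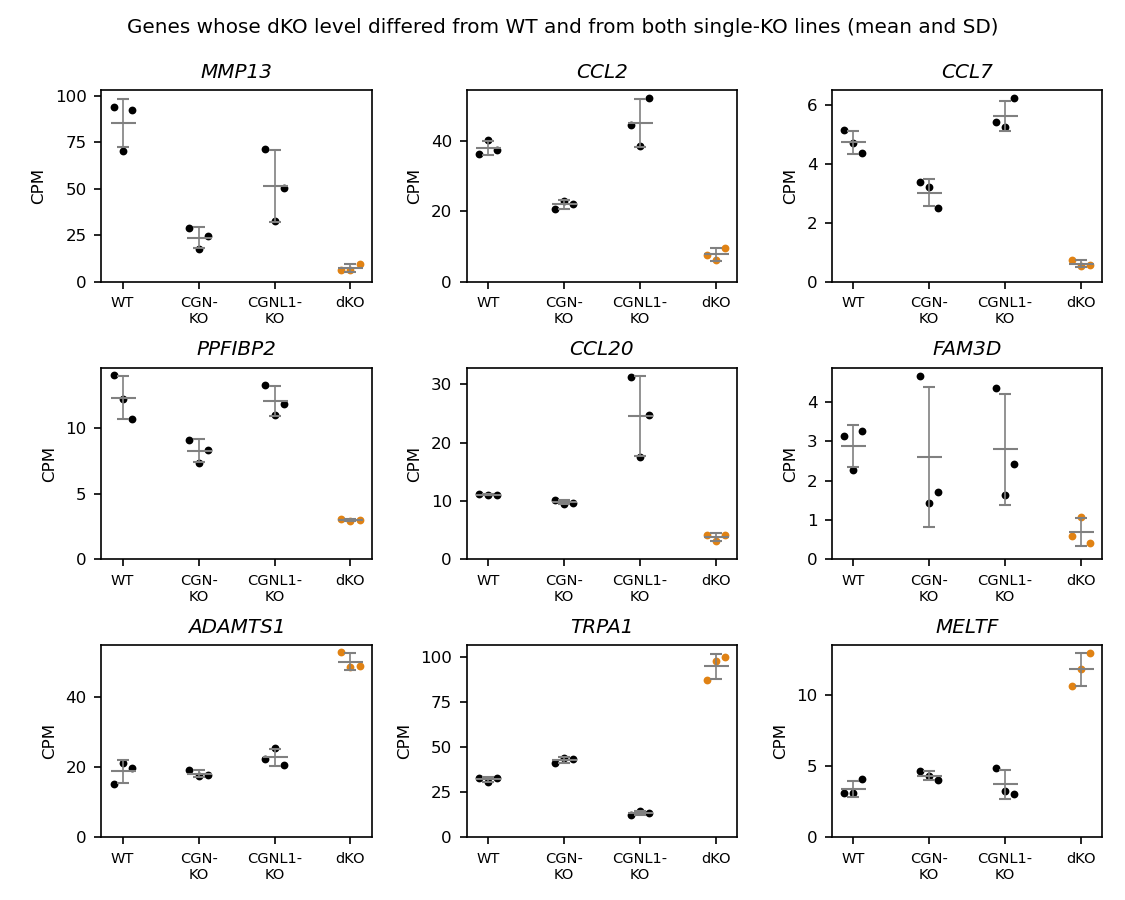
Levels in CPM (from 0) of the genes with a symbol that were called in dKO cells against WT, CGN-KO, and CGNL1-KO cells in the same direction. Points are the 3 libraries of a genotype, with mean and SD, and dKO is orange. TRPA1 is at 87.2 to 100.2 CPM in dKO libraries, and CCL20 is above WT in CGNL1-KO cells and below it in dKO cells.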

How the data were processed

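RNASeq libraries of MDCKII cells, 3 for WT and 3 for each KO genotype (dKO for both genes, CGN-KO, CGNL1-KO), were grouped by genotype label. The authors used a stranded mRNA kit, and the submitters' processing notes name STAR 2.7.0f, HTSeq 0.9.1, and CanFam3.1. The strand setting of the counting and the annotation are not given in the sources used here. The authors deposited normalized counts as a signal in CPM, scaled by library totals and edgeR TMM factors, for 13672 genes. Each value was a whole number of reads within 0.1% of 1 read (100% of values), so read counts were recovered.

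Genes above 1 CPM in at least 3 of the 12 libraries (12650) were tested with limma 3.58.1 in R 4.3.3 (lmFit, eBayes with trend) on log2(CPM + 1). The 12 libraries entered 1 fit with genotype as the factor, without a replicate block. A gene was called at a Benjamini-Hochberg adjusted p below 0.05 and at least a 2-fold difference. Adjusted p-values printed are those of limma. As alternatives, edgeR 4.0.16 (quasi-likelihood) and DESeq2 1.42.0 were run on the recovered reads, which gave 328 and 326 genes. Other alternatives were a pseudocount of 0.25, a filter of 5 CPM, no filter, library totals, chromosome centring, a replicate block, a fit of the 6 libraries only, and leaving out each library. The scripts were tested on simulated data. RefSeq genes (assembly UU_Cfam_GSD_1.0), matched by symbol, gave chromosomes and placed 92.9% of the genes tested; as this is not the build of the authors, no coordinates are given.

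Named genes were the targets, the called or best-ranked genes of proteins the study examined, the 14 largest rises and 14 largest falls among called genes with a symbol (not a LOC number) whose groups do not overlap, up to 4 called genes of a list (otherwise 2 with the smallest adjusted p), up to 2 called genes of a symbol family, up to 8 genes beyond both single-KO lines, and the 6 most abundant genes called. BAMBI, FST, CXCL8, CCL17, C3, MYH9, MYH10, FAM3D, and LOC111091706 fall outside this rule and were named after their values were seen. The members, the 42 gene lists, and the 51 symbol families were chosen with earlier results of these data known, and 3 further lists (mitochondrially encoded mRNAs, plasma proteins of the acute phase and complement, and ETS factors with MAP kinase feedback) after the values were seen. Of the 42 lists, 17 held no called gene. The septin list matched 0 genes, as 16 names in the table look like dates. A count of reads from PCR-amplified libraries covers counting error only. Some results are not reported here.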

Additional observations from a re-analysis of the deposited data

Results flagged for a closer look

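The dKO line differed from a single-KO line, by a direct test in the same limma fit at an adjusted p below 0.05 and at least 2-fold, for 45 genes against CGN-KO and 88 genes against CGNL1-KO cells. The 8 genes below with the largest smallest difference, of 10 such genes, differed from both lines in the direction in which they differed from WT. All values are dKO minus the other line on the log2(CPM + 1) scale, and in each case the 3 dKO libraries lay beyond all 9 other libraries. The tests share the dKO libraries.

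The chemokines CCL2 (−1.41 against CGN-KO and −2.41 against CGNL1-KO), CCL7 (−1.32 and −2.04), and CCL20 (−1.18 and −2.38) were lower, as were the collagenase MMP13 (−1.57 and −2.62) and PPFIBP2 (−1.21 and −1.70). TRPA1 (1.13 and 2.74), MELTF (1.26 and 1.46), and ADAMTS1 (1.42 and 1.10) were higher. The remaining 2 genes, FAM3D (−1.0 and −1.12) and LOC111091706 (−1.27 and −1.75), were lower.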

How the results depend on the processing

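No result changed its direction under any alternative run. With edgeR the genes called numbered 328 against WT (175 higher, 153 lower), 118 against CGN-KO (13, 105), and 194 against CGNL1-KO (78, 116), and with DESeq2 326 (173, 153), 117 (13, 104), and 199 (76, 123). With a pseudocount of 0.25 they numbered 278 (148, 130), 88 (11, 77), and 159 (61, 98). A pseudocount of 1 by construction damps the differences of low genes more than a smaller one. For the count tests the cause was not tested. With the filter of 5 CPM, which tests fewer genes, 135 genes were called against WT (79 higher, 56 lower), all of them also called in the main fit. Under that filter 37 genes were lower than in CGNL1-KO cells instead of 61. Leaving out each library in turn gave 171 to 184 genes against WT (87 to 102 higher, 73 to 85 lower), 37 to 58 against CGN-KO (5 to 7, 32 to 52), and 81 to 111 against CGNL1-KO (27 to 34, 47 to 84).

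Of the 77 named genes called, 9 lost the call under at least 1 alternative: DSG3, NRG1, MX1, CTSD, H19, CYP4A11, ADGRL2, SEMA4D, and F2. Genes that the filter of 5 CPM left untested, such as IL7R, were not counted as lost. The replicate block gave 174 genes against WT (108 higher, 66 lower), 39 against CGN-KO, and 87 against CGNL1-KO. It kept 154 (86.5%) of the 178 genes called against WT in the main fit. The libraries numbered 2 and 3 did not deviate together with those of the same number in dKO and WT (r = −0.152 and 0.0859), dKO and CGN-KO (−0.233 and −0.123), or dKO and CGNL1-KO cells (−0.235 and −0.124). The dKO numbers were therefore not taken as a pairing in these comparisons. With 2 numbered dKO libraries this check is weak. Some libraries of unlike number did deviate together: dKO 2 and library 1 of WT, CGN-KO, and CGNL1-KO had r of 0.185, 0.275, and 0.209. The unnumbered dKO library and library 1 had −0.0759, −0.136, and −0.223. The main fit holds no term for such shared spread, and its source was not tested. Under the block DSG3, NRG1, and MX1 were not called. The 3 libraries per genotype and the low reads of most genes called limit precision, and genes of under about 1 CPM were not tested.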
